A study of Homo sapiens with 11 samples.

Results

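MRC2, TFCP2L1 and ARHGEF25 were examined across arrays of 2 human lung adenocarcinoma cell lines, A549 and HCC827. The 3 genes were chosen by their measured signal: the difference between cells labelled TRIM58-WT and mock cells had opposite signs in the 2 lines. This difference and its contrast between the lines are therefore given as descriptions, without a p. They make up 3 of the 20249 genes that carried a named probe, and 4 of the 42405 probes, since ARHGEF25 had 2 probes. All cells were stable transfectants of an established line: mock cells had been infected with retrovirus carrying the empty pMXs-Neo vector, TRIM58-WT cells with the same vector holding the FLAG-tagged coding sequence of wild-type TRIM58, a ubiquitin ligase, and all had been selected with G418. There were 3 replicates of each kind in A549 and 2 of each kind in HCC827. A549 mock arrays 1-1 and 1-2 carry the label of the same control cell and were averaged to 1 replicate, so the 11 arrays gave 10 replicates.

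The study's methods describe clones isolated after selection, while its legends speak of A549 clones and of crude HCC827 transfectants. The labels do not say which array held which clone, so the spread between replicates may be that between clones or a technical one. Values are log2 of the background-subtracted signal of a probe minus the 75th percentile of its array, which allows 1 probe to be compared between arrays and not 1 probe with another. A probe was well above background on an array when the scanner software had marked over a share of 0.5 of the spots so, as it did for 40.1% to 50% of the probes of an array. The TRIM58 probe (A_33_P3249414) went against the labels: it was well above background on mock replicate 3 of A549 alone, at -0.71, and lay between -5.64 and -4.63 on the other 10 arrays. Where this probe lies in the transcript is not given in the sources used here, so it may not read a transcript of the vector, and groups are named throughout by the labels of their arrays. A549 mock replicate 3 also stood apart from the other mock arrays of A549, with an SD of the log2 differences over all probes of 0.68 to 0.82 against 0.29 to 0.46 among the others. TRIM58-WT replicate 1 of A549 stood apart in the same way, at 0.79 and 0.82 against 0.24 between replicates 2 and 3. The 75th percentile signal of the A549 arrays split likewise. It was 60.3 on mock 3, 62.5 on TRIM58-WT 2 and 56.6 on TRIM58-WT 3, and 90.5 to 103 on the others. The arrays lay on 2 slides: all 4 HCC827 arrays, A549 mock 1-1 and 2 and TRIM58-WT 1 on slide 1, and the other 4 A549 arrays on slide 2.

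The 3 genes have separate roles. MRC2, also named Endo180 or uPARAP, is an endocytic receptor of the mannose receptor family that binds collagen fragments at the cell surface and delivers them to lysosomes, and it is best known from fibroblasts and other mesenchymal cells. TFCP2L1 is a transcription factor of the CP2 and grainyhead family, known as a downstream factor of LIF and STAT3 in naive pluripotent stem cells and from epithelia such as the kidney collecting duct. ARHGEF25, also named GEFT or p63RhoGEF, is a guanine nucleotide exchange factor that activates the small GTPase RhoA when it is bound by an activated G protein alpha subunit of the Gq class. MRC2 lies on chromosome 17, TFCP2L1 on chromosome 2 and ARHGEF25 on chromosome 12 of assembly GRCh38.p14.

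The sequence upstream of TFCP2L1 is shown because the study dealt with CpG island promoters, and 1 of the 3 genes had an entry in the RefSeq promoter table (GRCh38.p14). It covers the 250 bases before the annotated start, at chr2:121285203-121285452 on the minus strand, and is written 5′ to 3′ along the gene with each CG pair in capitals.
TFCP2L1 upstream: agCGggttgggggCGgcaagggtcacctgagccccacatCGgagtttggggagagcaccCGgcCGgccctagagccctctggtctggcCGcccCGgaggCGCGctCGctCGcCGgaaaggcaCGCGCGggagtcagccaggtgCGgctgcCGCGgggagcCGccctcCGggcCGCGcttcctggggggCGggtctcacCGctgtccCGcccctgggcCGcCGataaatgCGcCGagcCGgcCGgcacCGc
The window held 32 CG pairs and 76.8% G and C. Across the 35116 promoters of the table the medians were 11 CG pairs and 58% G and C, and 9.5% of the promoters held at least 32 CG pairs. Methylation of this window was not analysed here.

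MRC2 was bright on every array and had the widest span of the 3 genes within A549. Its probe (A_33_P3364741, 2 spots per array) read 1.25 and 1.01 on A549 mock arrays 1-1 and 1-2, 1.12 on mock 2 and 4.23 on mock 3, against 6.15, 5.61 and 5.86 on the TRIM58-WT arrays. The groups did not overlap, and mock 3 lay closer to the TRIM58-WT arrays than to the other mock arrays. In HCC827 the mock arrays read 4.38 and 3.97 and the TRIM58-WT arrays 1.38 and 1.63, again without overlap and in the other direction. The group means were 2.16 ± 1.79 (SD, n = 3) in A549 mock, 5.87 ± 0.27 (SD, n = 3) in A549 TRIM58-WT, 4.18 ± 0.29 (SD, n = 2) in HCC827 mock and 1.50 ± 0.18 (SD, n = 2) in HCC827 TRIM58-WT. The mean of HCC827 mock thus lay between the means of the A549 groups, and HCC827 TRIM58-WT lay just above the 3 lower A549 mock arrays. TRIM58-WT minus mock came to 3.72 (SE 0.84), or 13.1-fold higher, in A549, and to -2.67 (SE 0.20), or 6.38-fold lower, in HCC827. Without A549 mock 3 the difference in A549 was 4.75, and with either other mock replicate left out it was 3.20. The paired spots of the probe differed by 0.010 to 0.17 on an array.

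TFCP2L1 ran the opposite way to MRC2. Its probe (A_23_P5301, 1 spot) read -1.88, -1.71, -1.88 and -1.26 on A549 mock arrays 1-1, 1-2, 2 and 3, and -3.85, -4.42 and -4.32 on the TRIM58-WT arrays. In HCC827 it read -5.03 and -4.75 on the mock arrays and -2.37 and -2.29 on the TRIM58-WT arrays. The probe was well above background on all A549 mock and HCC827 TRIM58-WT arrays and on no array of the other 2 groups, so the lower level is in each line only a bound. The group means were -1.64 ± 0.33 (SD, n = 3), -4.20 ± 0.31 (SD, n = 3), -4.89 ± 0.20 (SD, n = 2) and -2.33 ± 0.06 (SD, n = 2) in the order A549 mock, A549 TRIM58-WT, HCC827 mock, HCC827 TRIM58-WT. The measured differences, TRIM58-WT minus mock, were -2.55 (SE 0.25) in A549 and 2.56 (SE 0.16) in HCC827. In the main processing, against the lowest signal well above background on the dim arrays, TFCP2L1 was at least 1.98-fold lower in A549 TRIM58-WT. It was at least 1.87-fold higher in HCC827 TRIM58-WT. With the other background correction given below, the differences were -0.24 and 0.36 (log2), smaller than these bounds.

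ARHGEF25 followed the direction of MRC2 at a level close to background. Its brighter probe (A_23_P98844, 2 spots) read -3.06, -3.05, -2.89 and -2.55 on A549 mock arrays 1-1, 1-2, 2 and 3, and -0.84, -1.08 and -1.01 on the TRIM58-WT arrays. In HCC827 it read -1.09 and -1.40 on the mock arrays and -3.91 and -3.61 on the TRIM58-WT arrays. It was well above background on every A549 TRIM58-WT and HCC827 mock array and on no other, and the groups of a line did not overlap. The measured differences were 1.85 (SE 0.19) in A549 and -2.52 (SE 0.19) in HCC827. In the main processing the bounds were at least 3.54-fold higher in A549 TRIM58-WT and at least 4.36-fold lower in HCC827 TRIM58-WT. The A549 bound is close to the measured 3.61-fold, so it rests largely on the probe's own readings at background. With the other background correction given below, the differences were 0.53 and -0.58 (log2), smaller than these bounds. Paired spots of this probe differed by 0.073 to 1.50 on an array, with a median of 0.37. On none of the arrays was the second probe (A_24_P289299, 1 spot) well above background, so it was not tested. It read from -5.41 to -4.72 in A549 mock and from -4.76 to -3.52 in A549 TRIM58-WT, which overlap, and -3.82 and -5.09 in HCC827 mock against -5.78 and -5.47 in HCC827 TRIM58-WT.

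**Figure D1:**
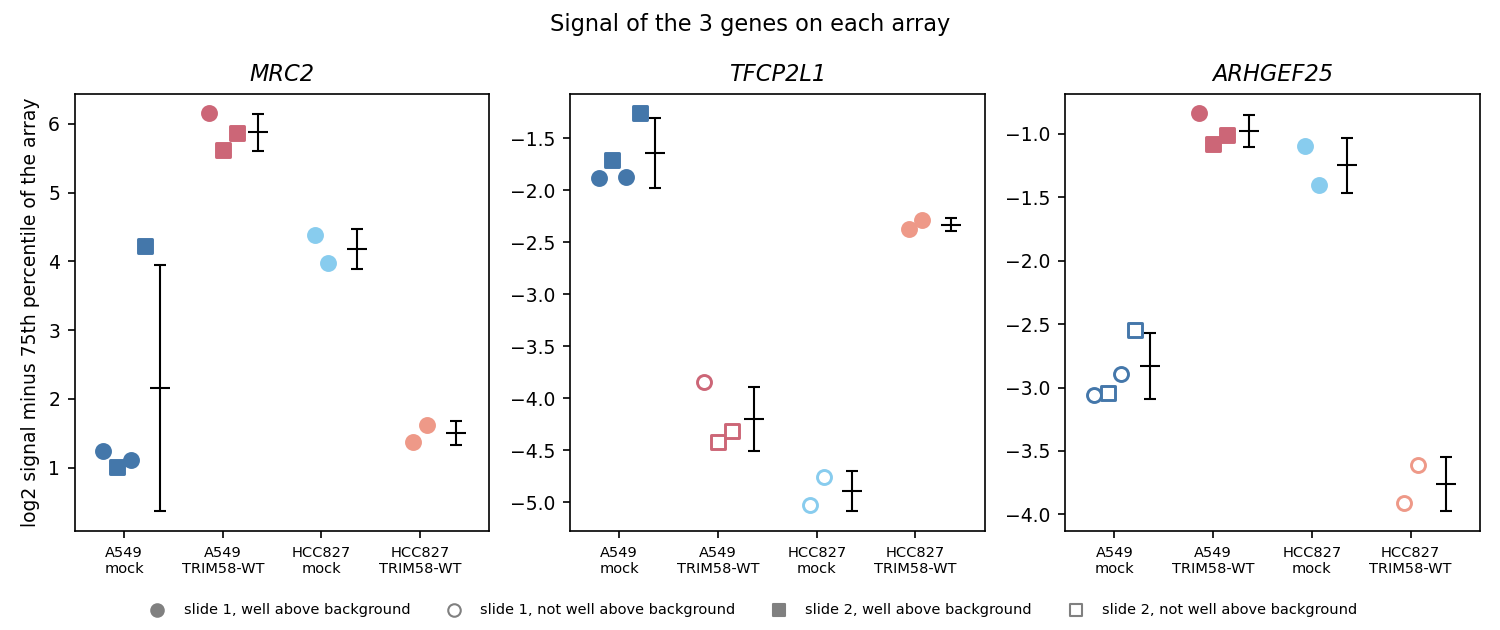
Each point is 1 array, with the log2 signal minus the array's 75th percentile on the vertical axis (separate for each gene) and the 4 groups along the horizontal axis; bars give mean ± SD over replicates, and open symbols mark arrays on which the probe was not well above background. MRC2 and ARHGEF25 are high in A549 TRIM58-WT and HCC827 mock, TFCP2L1 in A549 mock and HCC827 TRIM58-WT, and A549 mock replicate 3 reads 4.23 for MRC2.

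The sign of each difference in A549 was the same on both slides. For MRC2 TRIM58-WT minus mock was 4.97 on slide 1 (2 mock arrays and 1 TRIM58-WT array) and 3.12 on slide 2 (2 and 2). For TFCP2L1 the values were -1.97 and -2.89, and for ARHGEF25 they were 2.14 and 1.75. The HCC827 arrays shared slide 1. The A549 arrays with the lower 75th percentile signal were all on slide 2. The brighter ones were on slide 1 apart from mock 1-2, on slide 2 at 103. Slide and this split therefore largely run together. Among the dimmer A549 arrays MRC2 read 4.23 on mock 3, and 5.61 and 5.86 on TRIM58-WT 2 and 3. Among the brighter it read 1.01 to 1.25 on mock and 6.15 on TRIM58-WT 1. TFCP2L1 and ARHGEF25 kept their signs in both sets, and the part of this split was not tested. Background correction moved the 2 dim genes: with normexp at an offset of 50 in place of the scanner's own correction, TFCP2L1 came to -0.24 in A549 and 0.36 in HCC827, and ARHGEF25 to 0.53 and -0.58. MRC2 came to -2.41 in HCC827 in that setting.

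Across the 4 groups MRC2 was highest in A549 TRIM58-WT, then HCC827 mock, A549 mock and HCC827 TRIM58-WT. Its values in A549 mock overlapped those of both HCC827 groups. TFCP2L1 was highest in A549 mock, then HCC827 TRIM58-WT, and ARHGEF25 in A549 TRIM58-WT, then HCC827 mock. The remaining 2 groups of TFCP2L1 and of ARHGEF25 were not well above background on any array and have no order between them. A549 mock minus HCC827 TRIM58-WT was 0.65 for MRC2 and 0.69 for TFCP2L1. A549 TRIM58-WT minus HCC827 mock was 1.70 for MRC2 and 0.27 for ARHGEF25, whose values, from -1.08 to -0.84 and from -1.40 to -1.09, lay side by side without overlap. Between the mock groups alone, A549 minus HCC827 was -2.02 for MRC2, 3.25 for TFCP2L1 and -1.58 for ARHGEF25, whereas between the TRIM58-WT groups it was 4.37, -1.87 and 2.78. The change in A549 minus that in HCC827 was 6.39 (SE 1.17) for MRC2, -5.11 (SE 0.36) for TFCP2L1 and 4.37 (SE 0.29) for ARHGEF25. In these last comparisons the TFCP2L1 and ARHGEF25 values rest on groups at background.

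The difference between the lines, averaged over mock and TRIM58-WT, does not use the contrasts that chose the genes while a line has equal numbers of both. It was tested with limma over 20641 probes. None of the 3 genes met both criteria of a call, an adjusted p under 0.05 and at least 2-fold, while 33.5% of the tested probes (6907) did. Of the 3, 2 had an unadjusted p under 0.05 in limma, and the methods' t-test called 0. MRC2 was 1.18 (SE 0.59) higher in A549, with an adjusted p of 0.117 from limma, and the replicates spanned 1.12 to 6.15 in A549 and 1.38 to 4.38 in HCC827. TFCP2L1 was 0.69 (SE 0.18) higher in A549 (limma, adjusted p = 0.0102) and ARHGEF25 was 0.60 (SE 0.15) higher (limma, adjusted p = 0.00815), both under 2-fold. Both were at background on every array of 1 group in each line, so their averages mix measured and background values, and with normexp they came to 0.41 and 0.25. Both entered the test only through the groups where they were high, so their adjusted p is no independent support. On slide 1 alone the values were 0.83, 0.75 and 0.60. Without A549 mock 3, MRC2 differed by 0.66 with an adjusted p of 0.00938 from limma. That fit had unequal numbers of mock and TRIM58-WT replicates in A549, so it is not free of the contrast that chose the gene. Over the settings other than leaving out a replicate, the adjusted p of the 3 genes ranged from 0.106 to 0.463, from 0.00322 to 0.565 and from 0.00305 to 0.584. The highest values of TFCP2L1 and ARHGEF25 came from the methods' t-test.

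Between TRIM58-WT and mock, calls by the same criteria made up 6.92% of the 16923 probes tested in A549 (3.49% higher and 3.43% lower in TRIM58-WT) and 0.884% of the 19563 probes tested in HCC827 (0.291% higher and 0.593% lower). Of all probes, 23 were called in both lines, which is 1.96% of the A549 calls and 13.3% of the HCC827 calls, and 11 of them had opposite signs against 12 with the same sign. The 11 include 1 probe of each of the 3 genes, which were chosen for this pattern, so their calls are no support for it. Of the 11, 6 were higher in A549 TRIM58-WT and lower in HCC827 TRIM58-WT, and 5 the reverse. The difference between the lines had an adjusted p under 0.05 in limma for 796 probes, or 3.86%.

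The other opposite probes with the direction of MRC2 came from HIP1, an endocytic adaptor (1.96 in A549 and -1.68 in HCC827), PNMA8A (2.72 and -1.65), CTSC, a lysosomal dipeptidyl peptidase (1.76 and -1.36), and A_32_P208120, which had no symbol (2.36 and -1.91). With the direction of TFCP2L1 came SERPINB4, a serine protease inhibitor that has a near-identical paralog (-6.14 and 1.81), PTGS1, which encodes cyclooxygenase 1 (-2.58 and 1.55), C11orf86 (-1.33 and 1.99) and MYEOV (-3.59 and 1.29). SERPINB4 and PTGS1 were dim in A549 TRIM58-WT, with no array well above background, and there they were at least 16.0-fold and at least 1.28-fold lower than in mock. The other 6 probes exceeded background on all 11 arrays.

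**Figure D2:**
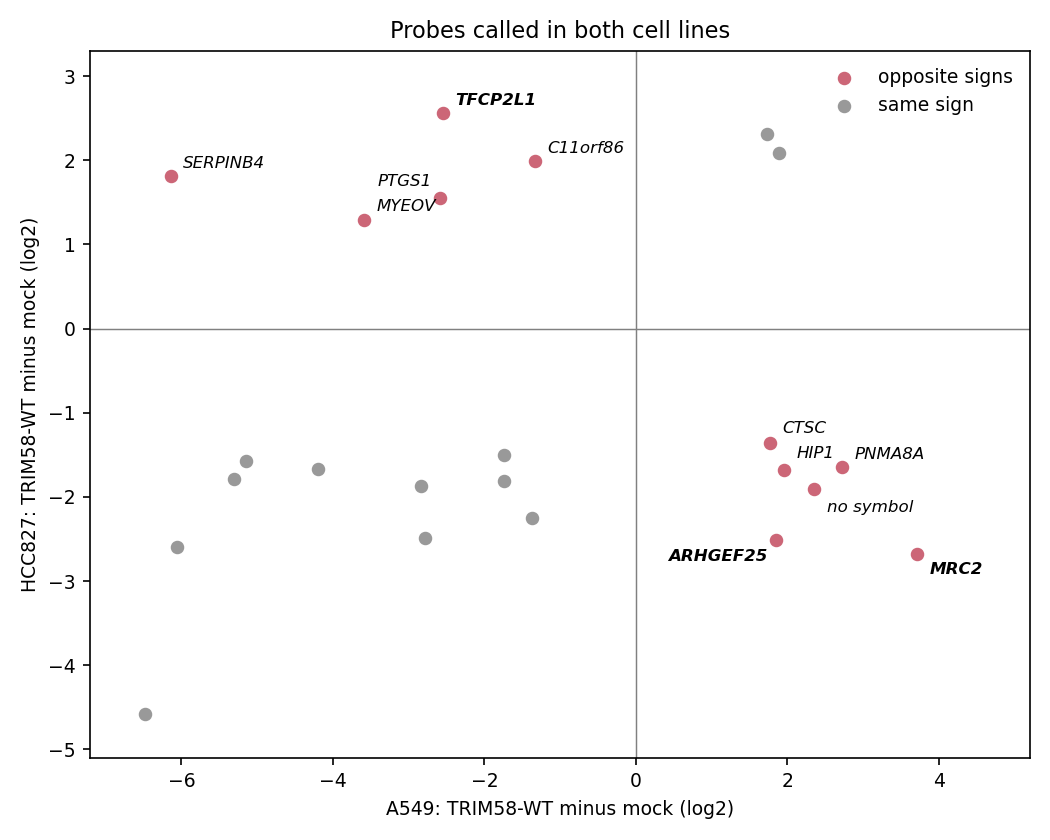
Each point is 1 of the 23 probes called in both lines, placed by TRIM58-WT minus mock (log2) in A549 on the horizontal axis and in HCC827 on the vertical axis. The 11 probes with opposite signs are named, with MRC2 (3.72 and -2.67), TFCP2L1 (-2.55 and 2.56) and ARHGEF25 (1.85 and -2.52) in bold, and 10 of the 12 others are lower in TRIM58-WT in both lines.

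Lists of genes that act beside each of the 3 were then counted, with 1 probe per gene, the brightest in the line. The collagen uptake list, beside MRC2, also holds collagens, proteases and their inhibitors, so its counts are not counts of uptake genes alone. Of its 17 genes tested in A549, 7 rose and 1 fell, or 47.1% called, against 7.98% of all 11202 genes tested (3.91% higher and 4.07% lower). Of the 7 collagens of the list 5 rose: COL1A1 by 4.33, COL5A1 by 4.22, COL4A1 by 2.82, COL5A2 by 2.46 and COL4A2 by 2.14 on the log2 scale, with adjusted p between 0.00199 and 0.0371 in limma. COL1A1 was not well above background on any A549 mock array and was at least 7.13-fold higher. COL1A2 and COL3A1 were below background on every A549 array and were not tested. TIMP2, a metalloproteinase inhibitor, rose by 1.55, while CTSB, a lysosomal cathepsin, fell by 1.06. The lysosomal genes LAMP1, LAMP2 and CTSD were not called. CD302, a C-type lectin, differed by 2.09 (adjusted p = 0.0620), the cathepsin CTSL by -1.36 (0.132) and the urokinase receptor PLAUR by -0.76 (0.145), all by limma and none called.

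The same list gave no call in HCC827, where MRC2 was lower in TRIM58-WT. With limma 0 of 19 genes were called, 9 had an unadjusted p under 0.05 and the methods' t-test called 0, while limma called 1.10% of all 12208 genes (0.336% higher and 0.762% lower). CD302 differed by -1.10 (adjusted p = 0.0672), the protease PLAU by 1.05 (0.0771) and COL4A1 by 1.03 (0.152). The median difference of the list was 0.53 in A549 and -0.14 in HCC827, beside 0.03 and 0.01 over all genes.

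Among CP2, grainyhead and naive pluripotency factors 7 of 18 tested genes were called in A549, or 38.9%, in both directions. SOX2 rose by 4.04, NR5A2 by 2.92, TCF7L1 by 2.13 and GBX2 by 1.46 on the log2 scale, and KLF5 fell by 2.54, KLF4 by 2.46 and TBX3 by 1.15, with adjusted p between 0.00401 and 0.0466 in limma. All are transcription factors, and the list does not sort them by whether they act with or against TFCP2L1. SOX2 was not well above background on any A549 mock array and was at least 4.04-fold higher. KLF2 differed by -1.86 (adjusted p = 0.110), TFAP2C by -1.46 (0.0764) and POU5F1 by -0.73 (0.596). In HCC827 GRHL1, a grainyhead factor of epithelia, was called alone among 20 tested genes and fell by 1.26 (limma, adjusted p = 0.0487). SOX2 differed there by -2.84 (adjusted p = 0.0685), KLF4 by 0.92 (0.0771) and NR5A2 by 0.90 (0.0735). The medians of the list were 0.05 in A549 and 0.06 in HCC827.

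Of the genes of Gq signalling and RhoA exchange, listed beside ARHGEF25, 2 of 27 tested were called in A549, or 7.41%, near the 7.98% of all genes, both lower in TRIM58-WT: ARHGDIB, a GDP dissociation inhibitor of small GTPases, by -4.11 and RND1, an atypical small GTPase, by -2.17, with adjusted p of 0.0239 and 0.0264 in limma. On TRIM58-WT arrays neither was well above background, so they were at least 6.30-fold and at least 2.37-fold lower. The exchange factor ARHGEF28 differed by -1.20 (adjusted p = 0.0558), the G protein subunit GNA12 by 0.95 (0.0583) and DIAPH1, an effector of RhoA, by -0.72 (0.129). In HCC827 limma called 0 of 33 genes, 11 had an unadjusted p under 0.05 and the methods' t-test called 0. The phospholipases PLCB4 and PLCB1, which Gq activates, differed there by 1.11 (adjusted p = 0.0797) and -0.91 (0.0990), and ARHGAP29 by 0.87 (0.255). The medians were -0.11 in A549 and 0.08 in HCC827.

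**Figure D3:**
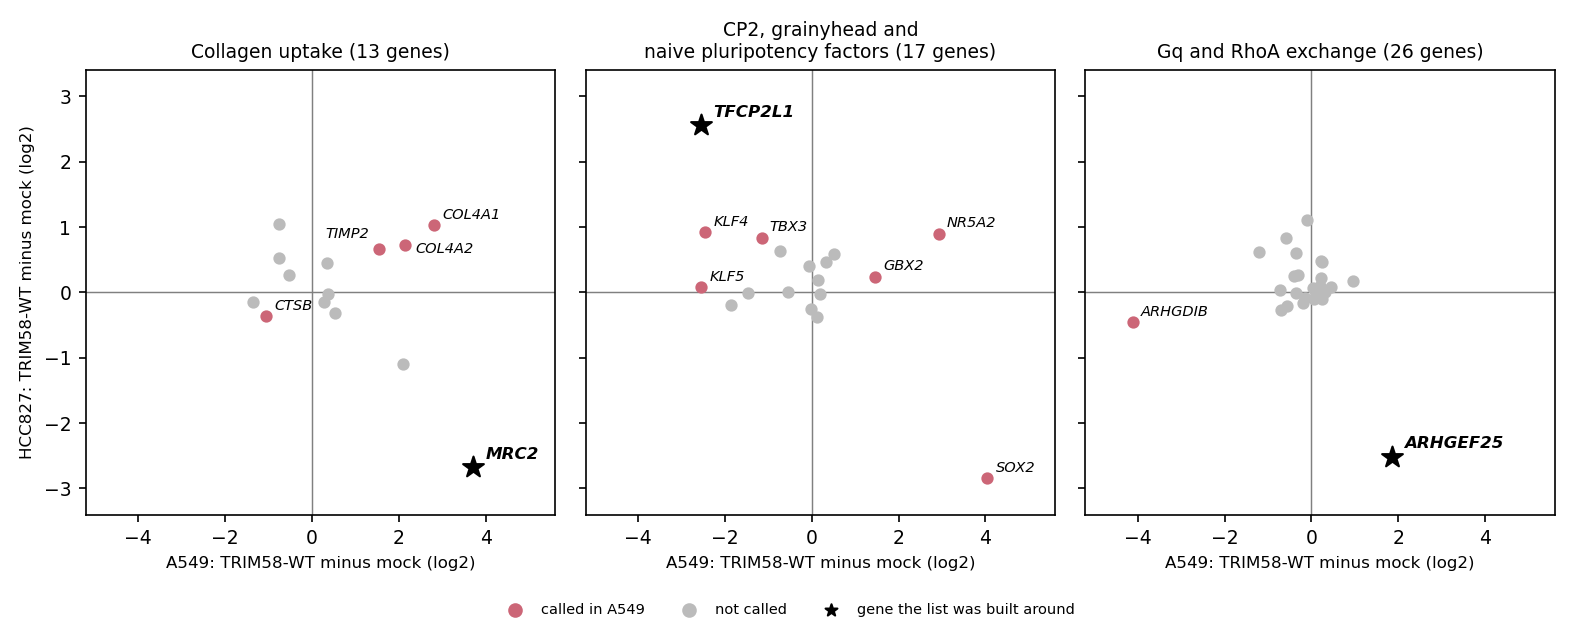
Each point is a gene tested in both lines, placed by TRIM58-WT minus mock (log2) in A549 and in HCC827, for the lists beside MRC2 (13 genes), TFCP2L1 (17 genes) and ARHGEF25 (26 genes). Genes called in A549 are coloured and named, stars mark the 3 genes themselves, and SOX2 (4.04 and -2.84) lies nearest to the corner of MRC2 and ARHGEF25.

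Over the 3 lists 17 of 62 genes were called in A549 (27.4%) and 1 of 72 in HCC827 (1.39%). Leaving out a replicate lowered the count in A549 to 3 without mock 1, 3 without mock 2, 6 without TRIM58-WT 2 and 3 without TRIM58-WT 3, and raised it to 22 without mock 3. In HCC827 it was 0 without mock 1 or mock 2 and 2 without TRIM58-WT 2. The methods' t-test called 0 genes of the lists in both lines, with 26 in A549 and 13 in HCC827 at an unadjusted p under 0.05.

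Some markers of the cell types differed between the groups in A549. Of 9 epithelial markers tested there, 5 were called lower in TRIM58-WT, beside 4.07% of all genes: KRT19 (-9.50), EPCAM (-4.88), CLDN4 (-3.10), ELF3 (-1.56) and KRT8 (-1.37), with adjusted p between 0.000151 and 0.0260 in limma. The others were not called: CDH1 (-2.33, limma adjusted p = 0.0716), KRT18 (-0.65, 0.133), KRT7 (0.25, 0.724) and ST14 (0.24, 0.871). KRT19 and CLDN4 were dim in every TRIM58-WT array, so they were at least 723-fold and at least 8.01-fold lower. Of 8 mesenchymal markers tested in A549, CDH2 rose by 2.72 and COL1A1 as above, S100A4 fell by 2.59, and the others were not called. In HCC827 limma called 0 of 14 epithelial markers, beside 1.10% of all genes, with 4 at an unadjusted p under 0.05 and 0 by the methods' t-test. Of 6 mesenchymal markers tested there, TWIST1 alone was called and fell by 2.71 (limma, adjusted p = 0.0287), at least 2.17-fold as a bound. The log2 of the summed epithelial markers ran from 10.6 to 11.2 in A549 mock, 10.1 to 10.8 in A549 TRIM58-WT, 10.71 to 10.77 in HCC827 mock and 10.9 to 11.1 in HCC827 TRIM58-WT. That of the 18 mesenchymal markers ran from 7.5 to 8.09, 7.29 to 8.71, 1.92 to 2.17 and 2.65 to 3.14 in the same order. All 6 endothelial markers were below background on every array, as were CD3E, MS4A1 and ITGAM of the leukocyte list, whose summed level was 2.05 to 2.59, 0.84 to 1.14, 2.21 on both and 2.68 to 2.88. Of 3 leukocyte markers tested in A549, CD14 fell by 3.06, NCAM1 was at least 3.77-fold lower and CD68 was not called. Of the markers of lung epithelium, NKX2-1, SFTPA1 and SFTPB were below background on every A549 array, while FOXA1, FOXA2 and ABCA3 were above it on every one, and ABCA3 rose by 1.14 (limma, adjusted p = 0.0256). The summed lung epithelial markers were at 3.68 to 3.90, 3.89 to 4.0, 6.15 to 6.35 and 5.04 to 5.33. Fewer cells of a kind and less RNA per cell cannot be told apart in such bulk samples, and the part of these markers in the levels of MRC2, TFCP2L1 and ARHGEF25 was not tested.

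The 3 genes most like each were found by Pearson correlation over the 10 replicates, which share arrays, slides and scaling, and are given as a description. MRC2 was followed by PRR29 (r = 0.971), ZNF436 (r = 0.967), a zinc finger gene, and GPR162 (r = 0.962), an orphan receptor of the G protein coupled class. GPR162 differed between TRIM58-WT and mock by 4.05 in A549 and -2.19 in HCC827 and PRR29 by 2.26 and -2.15, whereas ZNF436 differed by no more than 0.51 and -0.40. PRR29 was not well above background on any A549 mock or HCC827 TRIM58-WT array.

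TFCP2L1 was followed by ENPP1 (r = 0.966), an ectoenzyme that makes pyrophosphate, SCAMP1 (r = 0.956), a membrane trafficking protein, and NORAD (r = 0.932), a long noncoding RNA that binds Pumilio proteins. Their differences were smaller than that of TFCP2L1: -0.88 and 0.67 for ENPP1, -0.45 and 0.50 for SCAMP1 and -0.61 and 0.32 for NORAD. All were well above background on every array, unlike TFCP2L1. ARHGEF25 was followed by SMAD1 (r = 0.964), a mediator of BMP signals, NFATC1 (r = 0.960), a transcription factor activated by calcineurin, and ODAD4 (r = 0.945), a docking protein of ciliary dynein arms. ODAD4 differed by 1.46 and -1.72, NFATC1 by 0.72 and -0.93 and SMAD1 by 0.32 and -0.49.

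**Figure D4:**
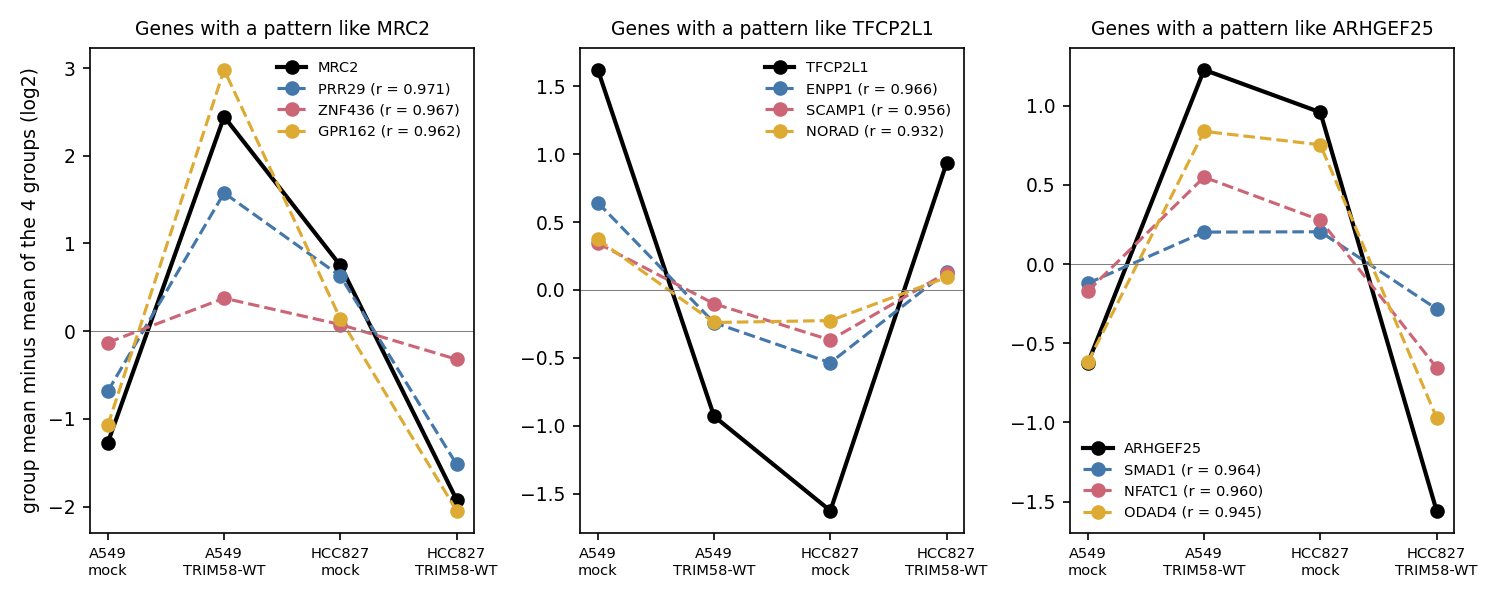
Lines join the means of the 4 groups, each as log2 signal minus the gene's mean over the 4 groups, for MRC2, TFCP2L1 and ARHGEF25 (black) and the 3 genes most correlated with each over 10 replicates (coloured, with r). All genes of a set move in the direction of their gene in both lines while the sizes differ, from 4.05 for GPR162 to 0.32 for SMAD1 between the A549 groups.

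None of the nearest genes on the chromosome was called in both lines. On each side the 3 nearest genes tested in either line were taken from the RefSeq table, 18 in all. In A549 3 of 15 tested neighbours were called, beside 7.98% of all genes: TANC2 beside MRC2 rose by 1.53, and beside TFCP2L1 GLI2, a transcription factor of hedgehog signalling, rose by 1.61 and INHBB, an activin subunit, fell by 5.54, at least 40.2-fold as a bound (limma, adjusted p = 0.0133, 0.0124 and 0.000151). In HCC827 limma called 0 of 17, beside 1.10% of all genes, with 2 at an unadjusted p under 0.05 and 0 by the methods' t-test, and INHBB differed there by 0.48. None of the neighbours of ARHGEF25 was called in either line. DTX3, next to ARHGEF25, differed by -2.25 in HCC827 with an adjusted p of 0.177 in limma.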

How the data were processed

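RNA of 11 stable transfectant samples was labelled with Cy3 and hybridised to Agilent SuperPrint G3 8x60k arrays in 1 colour. The authors deposited the signal intensity of each spot; per the file headers it was extracted with Agilent Feature Extraction 11.5.1.1, whereas the submitters' processing notes name version 10.7. The processed intensity was already background-subtracted and corrected for trends within an array, without scaling between arrays. A further deposited table gives log2 values of these arrays and served as an alternative. The study's methods name Gene Spring GX 13.0 and Benjamini-Hochberg adjustment at 2-fold, and no array test. What is called the methods' t-test here is Welch's t-test, which the study's general statistics name for comparing 2 groups.

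Control and outlier spots were left out, spots of a probe averaged, log2 taken and the array's 75th percentile over 42405 probes subtracted; 28 values were missing. A probe entered a comparison when each array of 1 or more of its groups had it well above background, and was tested with limma 3.58.1 (lmFit and eBayes, R 4.3.3) within each line, or over all 10 replicates for the lines, with Benjamini-Hochberg adjustment, and was called at an adjusted p under 0.05 and at least 2-fold. The 3 genes were part of these fits, but no p of their TRIM58-WT contrasts is given, since these contrasts chose them. Bounds, for these and other genes, set the bright group's mean against the dim group's mean. In the dim group each array gave the larger of its own value and its lowest signal well above background over all probes. Bounds hold for the main processing alone. Symbols came from RefSeq accessions (27241 of 28302 probes with one) in GRCh38.p14. The genes, lists and rules were chosen with earlier results of these data known. Named, apart from items that are not reported here, were the genes called in a list and the 3 largest others, the 3 most correlated genes, opposite calls, and 3 neighbours on each side. Each test step was first tried on simulated data. Precision is limited by the number of arrays. Alternatives were quantile and median scaling, normexp, no filter or a filter on every array, outlier spots kept, the authors' log2 table, one fit, mock arrays kept apart, slide and replicate number as blocks, the methods' t-test, and each replicate left out; a floor at the lowest signal well above background was added after seeing the data. Promoter counts and figures used Python 3.11.15, pandas 2.3.3 and matplotlib 3.10.9.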

Additional observations from a re-analysis of the deposited data

Results flagged for a closer look

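The TRIM58-WT change in A549 minus that in HCC827 was 6.39 for MRC2, -5.11 for TFCP2L1 and 4.37 for ARHGEF25 (log2). For the brightest probe of each gene, TRIM58-WT and mock replicates lay apart in both lines, in opposite directions. This goes with the choice of the genes and is no further support. The share of all probes that lie apart so was not worked out, and no p is given for the difference because it chose the genes.

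Among the genes of the lists, 17 had a change that differed between the lines with an adjusted p under 0.05 in limma. Over all 20641 probes tested, 796 had one, or 3.86%. How many list genes entered this contrast was not counted, so the 17 cannot be set against that share. Beside MRC2 these were COL1A1 (4.87, adjusted p = 0.0176) and PLAU (-1.80, 0.0271). Beside TFCP2L1 they were SOX2 (6.88, 0.00821), KLF5 (-2.62, 0.0174), TBX3 (-1.99, 0.0275), NR5A2 (2.02, 0.0314) and KLF4 (-3.38, 0.0429). Beside ARHGEF25 they were ARHGEF2 (-1.41, 0.0115) and ARHGEF28 (-1.81, 0.0499). The remaining were markers: KRT19 (-9.79, 8.29e-05), KRT8 (-1.98, 0.0215), EPCAM (-4.89, 0.0291), TWIST1 (4.47, 0.00648), S100A4 (-2.56, 0.0175), CDH2 (4.07, 0.0431), CD14 (-3.27, 0.00394) and NCAM1 (-3.85, 0.0419).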

How the results depend on the processing

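All 78 recomputed differences of MRC2, TFCP2L1 and ARHGEF25 kept their sign, and none of the 3 was called between the lines in any setting. The median shift moved every A549 change by -0.37, and quantile scaling moved the median change over all probes by -0.24. TFCP2L1 came to -2.92 and -2.98 there, and ARHGEF25 to 1.48 with the median shift. Normexp gave -0.24 and 0.36 for TFCP2L1 and 0.53 and -0.58 for ARHGEF25 in A549 and HCC827, and -2.41 for MRC2 in HCC827. The floor gave -0.99 and 0.90 for TFCP2L1 and -2.12 for ARHGEF25 in HCC827.

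Counts of calls depended on the setting, and the cause was not tested. The 1171 probes of A549 became 507 with normexp, 1801 with slide as a block and mock arrays 1-1 and 1-2 kept apart (1729 with these arrays apart alone), 609 without a filter, 673 with the filter on every array and 24 by the methods' t-test, and 301 to 1956 with a replicate left out (302 without mock 1, 360 without mock 2, 1956 without mock 3, 369 without TRIM58-WT 2, 301 without TRIM58-WT 3). The 17 list genes became 7 with normexp and without a filter, 9 on every array and 0 by the t-test (26 at an unadjusted p under 0.05), and 3 to 22 with a replicate left out. The 173 probes of HCC827 became 633 with the median, 106 with normexp, 373 on every array, 0 without a filter (4381 at an unadjusted p under 0.05) and 0 by the t-test (1500), and 0 to 831 with a replicate left out (0 without mock 1, where 2582 had an unadjusted p under 0.05, 1 without mock 2, 831 without TRIM58-WT 2). The 1 list gene became 4 with the median and on every array, 0 with the log2 table (28 at an unadjusted p under 0.05), in one fit (12), without a filter (22) and by the t-test (13), and 0 to 2 with a replicate left out. The 6907 probes between lines became 2930 with normexp and 3401 on every array.

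Same-numbered samples did not all deviate together (r = 0.50, -0.42 and 0.50 in A549, 0.077 in HCC827), and some samples of unlike number did (r = 0.41 and 0.57), so the numbers were not taken to pair them. With the replicate block limma called 1119 probes and 15 list genes in A549, and 0 probes (3850 at an unadjusted p under 0.05) and 0 list genes (28) in HCC827, and the 3 genes' differences were as without it (3.72, -2.55 and 1.85 in A549).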
